A study of Mus musculus with 6 samples.

Results

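The collagens are a family of triple-helical matrix proteins, each built from 3 alpha chains. Each kind of alpha chain is encoded by its own gene, and a protein can hold several copies of 1 kind. The genes described here are the 44 whose symbol in the deposited gene table is that of a collagen alpha chain, out of 53715 genes in the table. They fall into 11 fibrillar chains, 8 basement membrane chains (types IV, XV and XVIII), 9 chains of the FACIT class (fibril-associated collagens with interrupted triple helices), 6 beaded filament chains of type VI, 3 network chains (types VIII and X), 4 transmembrane chains and 3 anchoring or other chains (types VII, XXVI and XXVIII). RNA came from cells sorted as pericytes, the mural cells of capillaries, by a gate for CD146 without CD45 or CD31, from the gastrocnemius-soleus complex of 14-week-old male wild-type C57BL/6J mice. In 3 mice the lower leg muscles were stimulated electrically for 40 contractions, 20 eccentric and 20 concentric, over about 10 minutes, and tissue was taken 3 hours later. The other group was 3 unstimulated sham mice of the same strain, sex and age. Each group size is stated as a number of mice, and each mouse gave 1 library.

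Fibrillar collagens form the fibres of the interstitial matrix, in which type V chains nucleate fibrils of types I and III. Type IV collagen forms the network of the basement membrane that pericytes share with the endothelium, and types XV and XVIII link that membrane to the surrounding matrix. In muscle, fibroblast-like cells are known as the main source of fibrillar collagen, and endothelial and mural cells both make type IV collagen.

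The libraries held 17520338 to 23709220 estimated reads. The sort marker Mcam, which encodes CD146, was at 24.3 to 54.1 CPM (counts scaled to library size) in stimulated and 39.0 to 105 CPM in sham libraries. Both antigens that the gate excluded were present as RNA: Ptprc, which encodes CD45, was at 989 to 1035 CPM in stimulated and 194 to 863 CPM in sham libraries, higher after stimulation without overlap, and Pecam1, which encodes CD31, was at 384 to 577 and 524 to 1277 CPM. Of 10 endothelial markers, 10 had a negative log2 fold change and 10 an unadjusted p under 0.05 (52.0% and 4.41% of all genes tested), with a summed level of 1968 to 3016 CPM in stimulated and 3428 to 8692 CPM in sham libraries. The 10 pericyte markers summed to 205 to 454 CPM in stimulated and 355 to 744 CPM in sham libraries. Of these markers, 9 of 10 had a negative log2 fold change, with a median of -0.78. At an unadjusted p under 0.05, 1 pericyte marker was lower (4.41% of all genes). Without sham 2 the pericyte markers were negative in 8 of 10, with a median of -0.43. In sham 2 the endothelial sum was the highest of the 6 libraries and the sum of 10 lymphocyte markers the lowest, at 233 CPM against 1403 to 2197 CPM in the others. The lymphocyte markers were positive in 10 of 10, with a median log2 fold change of 0.66 and 3 higher at an unadjusted p under 0.05 (2.64% of all genes). Without sham 2 they were positive in 6 of 10, with a median of 0.20. No member of these 3 lists was at 0 in any library. In such bulk samples, fewer cells of a type and less RNA per cell cannot be told apart.

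All 44 collagen genes passed the filter on low counts, and none was at 0 in any library. By edgeR's quasi-likelihood test with Benjamini-Hochberg adjustment, 0 of the 44 differed between stimulated and sham libraries at an adjusted p of 0.05. The share called over all 26559 genes tested was 0%, and the smallest adjusted p of a collagen gene was 0.351, for Col28a1. At an unadjusted p under 0.05, 3 collagen genes (6.82%) were lower after stimulation, against 4.41% of all genes, and 0 were higher, against 2.64% of all genes. These 3 were Col28a1, Col17a1 and Col8a1. DESeq2 called 1 collagen gene, Col28a1, and 227 genes in all.

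Below that threshold, the estimates of the family lay mostly on the sham side. The log2 fold change (stimulated against sham) was negative in 34 of 44 collagen genes (77.3%), against 52.0% of all genes. The median was -0.37 for the collagen genes and -0.02 for all genes. In reads summed over each gene's transcripts, a second quantity explained further on, 0 of 44 had an adjusted p under 0.05 (0.00377% of all genes), 2 were lower at an unadjusted p under 0.05 (4.55%, against 5.0%), Col4a3 and Col8a1, and 38 of 44 were negative (86.4%, against 52.4% of all genes) and the median was -0.43. The collagen genes share libraries and are not replicates, so these shares describe these 6 libraries. The median was -0.18 without sham 2 and -0.77 without stimulated 3.

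**Figure D1:**
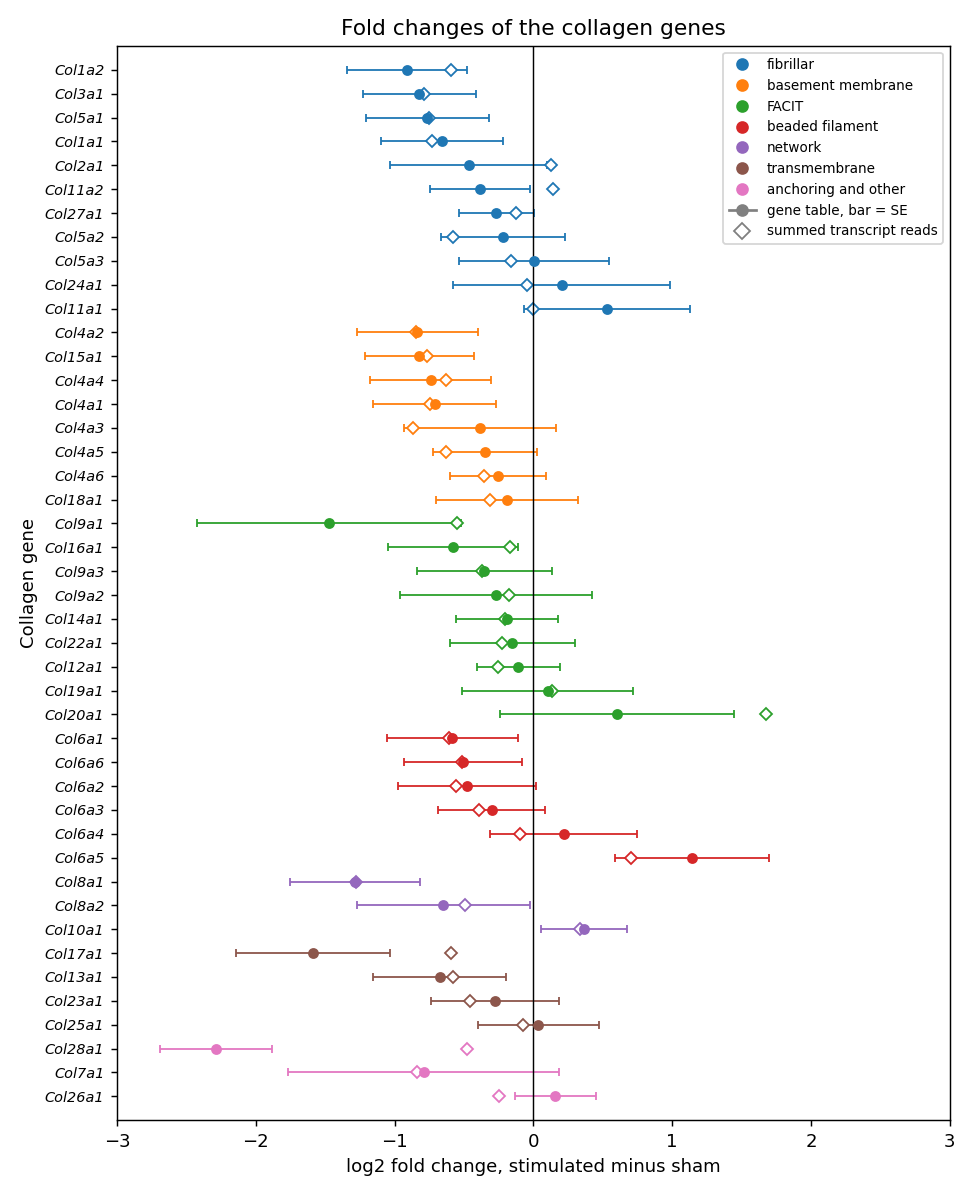
Log2 fold change of each collagen gene, stimulated against sham, ordered by structural group. Filled circles with bars are the estimate and its standard error from the deposited gene table, and open diamonds are the estimate from summed transcript reads. Of the 44 circles, 34 lie left of 0, and the largest gap between circle and diamond is that of Col28a1.

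Among the fibrillar collagens, 8 of 11 had a negative log2 fold change, with a median of -0.38, and none had an unadjusted p under 0.05. The median was -0.16 in summed reads, -0.18 without sham 2 and -0.85 without stimulated 3. Col3a1, the chain of type III collagen of pliable tissues (chr1:45311538-45349706, plus strand, GRCm38), was at 208, 242 and 399 CPM in stimulated 1, 2 and 3 and at 276, 730 and 494 CPM in sham 1, 2 and 3. The groups overlapped, since stimulated 3 lay above sham 1. Its log2 fold change was -0.82 (SE 0.41, adjusted p = 0.747 by edgeR), and -0.44 without sham 2. Col1a1, the alpha 1 chain of type I collagen, was at 122, 171 and 382 CPM in stimulated and 238, 417 and 411 CPM in sham libraries, a log2 fold change of -0.66 (SE 0.44, edgeR adjusted p = 0.866). Here too stimulated 3 lay within the sham range, and the other stimulated libraries lay below it. Col1a2, which encodes the partner chain of Col1a1, was at 96.0, 164 and 271 CPM in stimulated and 223, 494 and 280 CPM in sham libraries (log2 fold change -0.91, SE 0.43). That estimate was -0.59 in summed reads and -0.50 without sham 2. Col5a1, a chain of the fibril-nucleating type V, was at 28.2, 32.0 and 76.2 CPM in stimulated and 45.2, 106 and 80.3 CPM in sham libraries (log2 fold change -0.76, SE 0.44).

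Col5a2 and Col5a3 also encode type V chains. Col5a2 was at 29.1, 31.5 and 85.5 CPM in stimulated and 39.9, 79.3 and 50.7 CPM in sham libraries, with its highest value in stimulated 3 (log2 fold change -0.22, SE 0.45). Col5a3 was at 72.0 CPM in stimulated 3, above all 3 sham libraries (22.5 to 60.3 CPM), while stimulated 1 and 2 were at 18.7 and 23.5 CPM. The log2 fold change of Col5a3 was 0.00 (SE 0.54), and -0.85 without stimulated 3. The log2 fold changes of the 5 chains not given by library, Col2a1, Col11a1, Col11a2, Col24a1 and Col27a1, were -0.47 to 0.53. The chains best known from cartilage, Col2a1, Col11a1 and Col11a2, stayed between 0.84 and 12.3 CPM in every library.

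**Figure D2:**
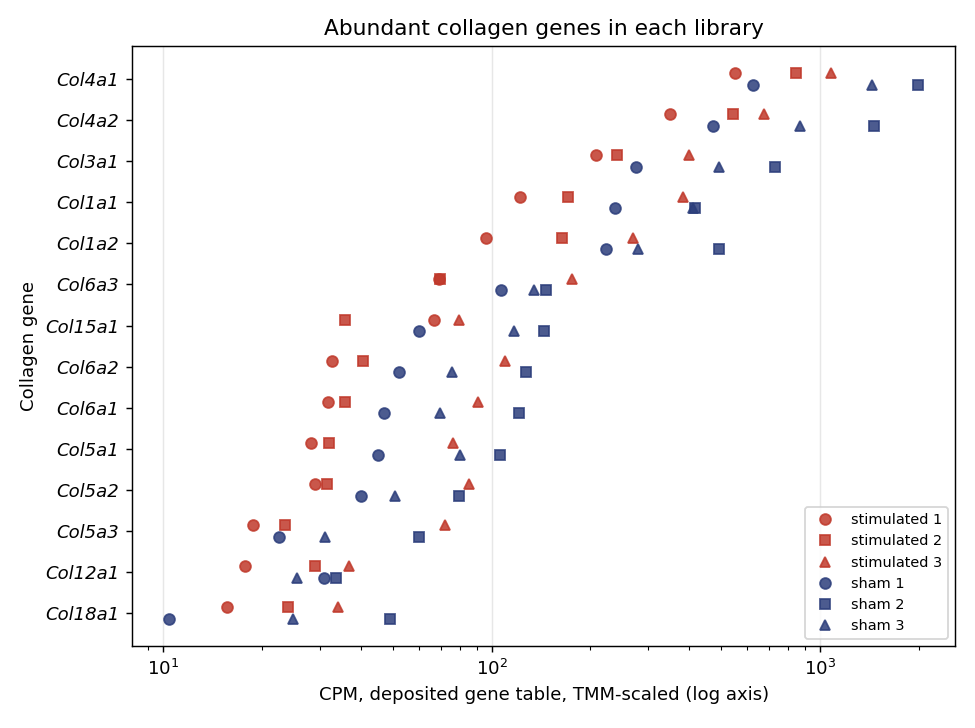
CPM of the 14 collagen genes with a mean of at least 20 CPM, on a log axis, with 1 point per library. Stimulated 3 is the highest stimulated library and sham 2 the highest sham library for 14 of 14 genes, and the groups overlap for each.

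The sequences before the annotated start of 2 chains that the results turn on are shown to give the context of these genes: the fibrillar chain with the highest CPM, and the network chain described below. They are RefSeq promoter entries of the build GRCm38.p6, cut to bases outside annotated exons, and capitals mark matches on either strand to the motifs searched, which were the TATA box (letters TATAAA), the CCAAT box, the GC box (letters GGGCGG), the AP-1 motif (letters TGANTCA) and the CArG box. In the sequences printed here no match overlapped another.
Col3a1, chr1:45311288-45311537, plus strand: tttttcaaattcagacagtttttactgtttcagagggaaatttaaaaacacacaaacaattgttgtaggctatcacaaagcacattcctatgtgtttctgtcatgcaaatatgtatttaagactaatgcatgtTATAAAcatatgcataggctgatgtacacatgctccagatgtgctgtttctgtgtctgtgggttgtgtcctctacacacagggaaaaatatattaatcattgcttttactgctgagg
Col8a1, chr16:57754738-57754987, minus strand: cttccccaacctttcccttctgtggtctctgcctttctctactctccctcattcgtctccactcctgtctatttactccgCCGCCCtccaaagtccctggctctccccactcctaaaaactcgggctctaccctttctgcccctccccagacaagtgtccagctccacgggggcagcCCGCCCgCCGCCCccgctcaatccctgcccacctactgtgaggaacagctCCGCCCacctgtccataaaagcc
The capitals are a TATA match in Col3a1 and 4 GC box matches on the opposite strand in Col8a1. RefSeq entries were matched for 35 of the 44 collagen genes, with 38 windows of 300 bases. The letters GGGCGG occurred in 23 of the 38 (60.5%), against 35.7% of 32851 windows in the whole table. TATAAA occurred in 5 of 38 (13.2%, against 13.6%), CCAAT in 13 (34.2%, against 37.4%), TGANTCA in 1 (2.6%, against 7.8%) and the CArG box in 1 (2.6%, against 1.6%). Such matches describe the letters and are not binding sites.

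Of the basement membrane collagens, 8 of 8 had a negative log2 fold change, with a median of -0.55, and in summed reads the count was also 8 of 8. In the gene table the count was 7 of 8 when stimulated 1 or sham 2 was left out, and the median without sham 2 was -0.30. None had an adjusted p under 0.05. Col4a1 and Col4a2, whose products assemble into the type IV network of nearly all basement membranes, were the most abundant collagen genes by CPM. Col4a1 (chr8:11198423-11312826, minus strand) was at 551, 847 and 1079 CPM in stimulated and 624, 1992 and 1438 CPM in sham libraries. Col4a2 (chr8:11312805-11449287, plus strand) was at 350, 544 and 676 CPM in stimulated and 473, 1463 and 867 CPM in sham libraries. In both genes sham 1 lay inside the stimulated range and sham 2 and sham 3 above it. The log2 fold changes were -0.71 for Col4a1 (SE 0.44, edgeR adjusted p = 0.845) and -0.84 for Col4a2 (SE 0.44, edgeR adjusted p = 0.771). Without sham 2 they were -0.32 and -0.36, and without stimulated 3 they were -0.95 and -1.06.

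Col4a1 and Col4a2 are transcribed in opposite directions from one start region, and the annotated starts overlap by 22 bases (chr8:11312805-11312826, GRCm38.p6), shown here on the strand of Col4a2 with a GC box match in capitals.
Shared start of Col4a1 and Col4a2: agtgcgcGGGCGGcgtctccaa
Reads from these bases could belong to either gene unless strand was used, and the strand setting of the quantification is not given in the sources used here. Per kilobase of the longest coding transcript, the ratio of Col4a1 to Col4a2 reads was 1.47, 1.36 and 1.53 in stimulated and 1.37, 1.34 and 1.38 in sham libraries. It varied far less than the level of either gene. No such ratio was tested, because with 3 libraries a side the smallest two-sided p of an exact permutation test is 0.1.

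Col15a1 and Col18a1 encode the multiplexins, and the difference between their fold changes was not tested. Col15a1 was at 66.7, 35.7 and 79.5 CPM in stimulated and 60.2, 144 and 117 CPM in sham libraries (log2 fold change -0.82, SE 0.39, edgeR adjusted p = 0.733). Col18a1, whose product also yields the fragment endostatin, was at 15.6, 24.1 and 34.2 CPM in stimulated and 10.4, 49.1 and 24.8 CPM in sham libraries. Sham libraries held both its lowest and its highest value, and its log2 fold change of -0.19 (SE 0.51) became 0.49 without sham 2. The minor type IV chains Col4a3, Col4a4, Col4a5 and Col4a6, which replace the major chains in specialised membranes such as that of the kidney glomerulus, were at 3.25 to 14.8 CPM. Col4a3 was at 7.53, 3.55 and 12.3 CPM in stimulated and 14.8, 11.8 and 4.04 CPM in sham libraries in the gene table, with overlapping groups. In summed reads it was at 5.06, 4.13 and 6.61 CPM against 7.03, 13.1 and 8.65 CPM, without overlap (log2 fold change -0.86, SE 0.32, unadjusted p = 0.025, edgeR adjusted p = 0.602).

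The beaded filament chains Col6a1, Col6a2 and Col6a3 encode the 3 subunits of the classical type VI collagen, which forms microfilaments around muscle fibres and vessels. Col6a1 was at 31.8, 35.9 and 91.0 CPM in stimulated and 47.2, 121 and 69.5 CPM in sham libraries. Col6a2 was at 32.7, 40.5 and 110 CPM in stimulated and 52.1, 128 and 75.6 CPM in sham libraries, and Col6a3 at 69.3, 69.8 and 176 CPM against 107, 147 and 134 CPM. In all 3 genes stimulated 1 and 2 lay below every sham library and stimulated 3 lay above sham 1 and sham 3. For Col6a3, stimulated 3 lay above sham 2 as well. The log2 fold changes of Col6a1, Col6a2 and Col6a3 were -0.58 (SE 0.47), -0.48 (SE 0.49) and -0.30 (SE 0.39), and without sham 2 they were -0.13, -0.06 and -0.19. The ratio of Col6a1 to Col6a2 in reads per kilobase was 0.982 to 1.13 over the 6 libraries. That of Col6a3 to Col6a1 was 0.777, 0.866 and 0.738 in stimulated and 0.627, 0.676 and 0.687 in sham libraries. On this scale it was higher after stimulation without overlap. In TPM the same ratio was 1.858, 1.66 and 1.652 in stimulated and 1.934, 1.035 and 1.654 in sham libraries, and the groups overlapped. Of the chains that can take the place of Col6a3, Col6a6 was at 5.64, 5.42 and 12.5 CPM in stimulated and 9.82, 16.1 and 7.56 CPM in sham libraries. Col6a5 had the highest fold change of the family in the gene table, 1.14 (SE 0.55, unadjusted p = 0.069, edgeR adjusted p = 0.739), at 1.47, 4.58 and 2.56 CPM in stimulated and 1.42, 1.84 and 0.63 CPM in sham libraries. These were 49, 68 and 28 reads against 35, 46 and 7 reads.

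The FACIT collagens, which sit on fibril surfaces, had the median nearest to 0 of all 7 groups in the gene table, -0.19, with 7 of 9 negative. The median turned to 0.07 without stimulated 1. Col12a1, typical of tendon and fascia, was at 17.8, 29.0 and 36.7 CPM in stimulated and 30.8, 33.6 and 25.6 CPM in sham libraries. Col14a1 was at 9.96, 8.77 and 21.6 CPM against 17.8, 14.6 and 13.5 CPM. Col16a1 was at 3.53, 3.01 and 8.44 CPM against 7.86, 10.0 and 4.57 CPM (log2 fold change -0.58, SE 0.47). The Col16a1 value was -0.17 in summed reads, and -0.30 without sham 2 to -1.19 without stimulated 3. Col22a1, known from the myotendinous junction, was at 5.86 to 15.8 CPM over both groups. The groups overlapped for each of these chains, and the estimates for Col12a1, Col14a1 and Col22a1 were smaller than their standard errors.

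Col20a1 depended on 1 library. It was at 63, 84 and 517 summed reads in stimulated and 100, 32 and 62 in sham libraries, so stimulated 3 alone was high in that quantity. The log2 fold change was 1.68 in summed reads (SE 0.70, unadjusted p = 0.039, edgeR adjusted p = 0.634). There it was the 1 collagen gene higher at an unadjusted p under 0.05 (2.27%, against 2.49% of all genes). In the gene table it was at 5.53, 3.45 and 25.1 CPM in stimulated and 15.7, 2.06 and 4.62 CPM in sham libraries, so sham 1 was also raised. A transcript of 441 bases held 69.4, 0 and 30.0% of the gene's TPM in stimulated and 87.9, 51.1 and 63.8% in sham libraries. Its reads were at most 15.4, in sham 1. The gene table gave a Col20a1 log2 fold change of 0.60 (SE 0.84), and -0.73 without stimulated 3. The glial transcription factor gene Sox10 was at 4.77 CPM in stimulated 3 and 0.47 to 1.07 CPM in the other libraries, and the 8 Schwann cell markers summed to 103 CPM there and 44.2 to 65.9 CPM elsewhere. Stimulated 3 was also highest for the myofibre markers (167 CPM, against 29.4 to 57.3 CPM elsewhere) and the tenocyte markers (217, against 29.2 to 133 CPM). The same held for the satellite cell markers (36.6, against 3.60 to 20.3 CPM). The endothelial, pericyte, smooth muscle, fibro-adipogenic and myeloid sums were highest in sham 2, and the lymphocyte sum in sham 3. No marker of these lists was at 0 in any library, and the part of any list in the Col20a1 value was not tested.

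Of the network collagens, Col8a1 encodes a short-chain collagen made by vascular and endothelial cells. It was at 6.06, 4.98 and 14.0 CPM in stimulated and 14.0, 31.6 and 15.5 CPM in sham libraries. The groups did not overlap, but stimulated 3 and sham 1 were nearly equal. The log2 fold change was -1.29 (SE 0.47, unadjusted p = 0.022, edgeR adjusted p = 0.638). The gene has 1 annotated transcript here, and in summed reads, 117, 104 and 308 in stimulated and 323, 564 and 298 in sham libraries, the value was -1.28 (SE 0.42). Leaving out single libraries gave -0.82, without sham 2, to -1.89, without stimulated 3. The endothelial markers, whose sums also did not overlap between the groups, moved in the same direction. So did 9 of 10 pericyte and 7 of 7 smooth muscle markers (medians -0.776 and -1.065, with 52.0% of all genes negative), whose sums overlapped. The part of any of these lists in the Col8a1 difference was not tested. Col8a1 and Col28a1 were the collagen genes whose groups did not overlap in the lower direction in the gene table, 2 of 44 (4.55%, against 5.89% of all genes). In the other direction it was 1 of 44 (2.27%, against 6.12%), the hypertrophic cartilage chain Col10a1, at 6.22, 5.91 and 5.75 CPM in stimulated and 4.75, 3.41 and 5.72 CPM in sham libraries (log2 fold change 0.36, SE 0.31). In summed reads Col10a1 overlapped and 0 of 44 were higher without overlap (against 6.08% of all genes), while 6 of 44 were lower without overlap (13.6%, against 6.03%): Col17a1, Col23a1, Col4a3, Col4a5, Col7a1 and Col8a1. Col8a2, which encodes the partner chain of Col8a1, was at 1.79, 3.79 and 0.75 CPM in stimulated and 2.31, 2.06 and 5.57 CPM in sham libraries (log2 fold change -0.65, SE 0.62). Without sham 3 the Col8a2 value was -0.04, and without stimulated 2 it was -1.39.

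Col28a1 had the largest fold change of the family, and its size depended on how reads were turned into a gene value. Col28a1 (chr6:7997808-8192617, minus strand) encodes a chain with von Willebrand factor domains that is known from peripheral nerve. It was at 3.42, 3.35 and 7.56 CPM in stimulated and 29.8, 24.3 and 16.1 CPM in sham libraries in the gene table, a clear gap between the groups. The log2 fold change was -2.29 (SE 0.40, unadjusted p = 0.00031, edgeR adjusted p = 0.351). In summed reads the same gene held 101, 77 and 194 reads in stimulated and 97, 218 and 162 in sham libraries, which overlapped, and the log2 fold change was -0.48 (SE 0.42, edgeR adjusted p = 0.95).

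The gap came with a transcript of 214 bases (GENCODE M21, exons at chr6:8022737-8022766, chr6:8022088-8022123 and chr6:8021290-8021437, minus strand), annotated as a processed transcript without a reading frame. Its sequence is shown because these bases decided the gene value, with capitals for the 66 bases that lie in coding exons of the full-length transcript and lower case for the 148 bases of its own last exon.
Col28a1 short transcript: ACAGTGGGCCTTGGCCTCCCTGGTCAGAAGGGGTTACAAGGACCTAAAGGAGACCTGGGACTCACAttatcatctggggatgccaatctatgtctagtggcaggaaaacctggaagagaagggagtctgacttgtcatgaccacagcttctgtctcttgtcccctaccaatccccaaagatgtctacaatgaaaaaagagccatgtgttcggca
It was assigned 0, 0 and 0.56 reads in stimulated and 5, 3 and 2 reads in sham libraries. Its effective length was 11.0 to 12.8 bases, so these few reads made up 0, 0 and 39.5% of the gene's TPM, the length-scaled transcript abundance, in stimulated and 88.2, 77.0 and 71.9% in sham libraries. The gene table followed TPM, as described in the processing of the data. The full-length coding transcript of 4230 bases held 88.5, 63.5 and 179 reads in stimulated and 75.6, 203 and 148 reads in sham libraries, with no separation of the groups.

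**Figure D3:**
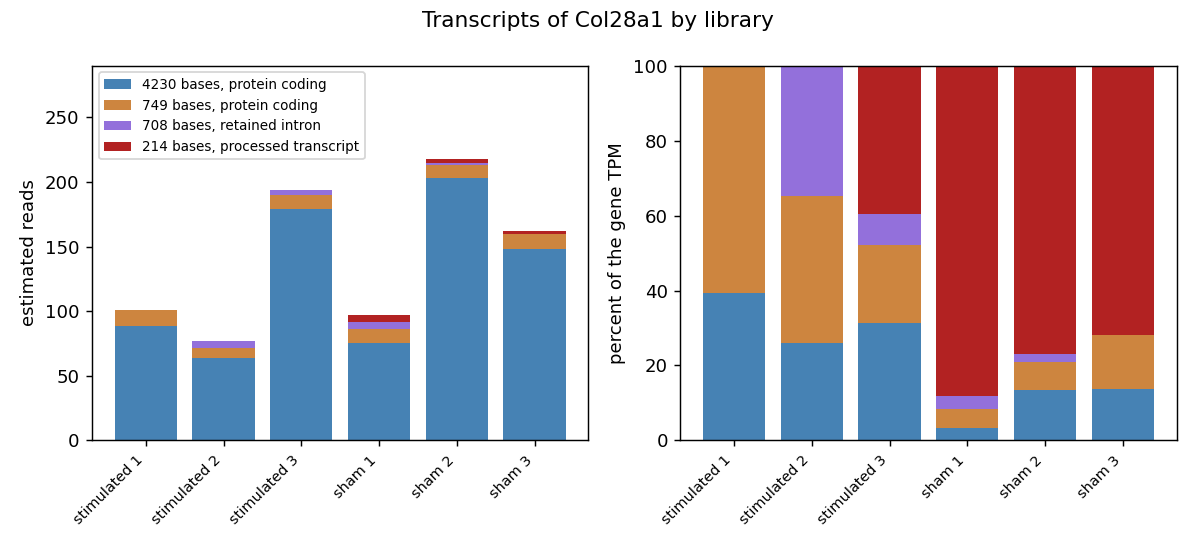
Estimated reads (left) and percent of the gene's TPM (right) of the 4 annotated Col28a1 transcripts in each library. The 214-base transcript is barely visible among the reads but takes 71.9 to 88.2% of TPM in the sham libraries.

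Col17a1, the transmembrane collagen of epithelial hemidesmosomes, also had a larger fold change in the gene table than in summed reads. It was at 2.00, 2.61 and 2.78 CPM in stimulated and 13.2, 6.77 and 2.36 CPM in sham libraries in the gene table (log2 fold change -1.59, SE 0.55, unadjusted p = 0.018, edgeR adjusted p = 0.629), where sham 3 lay inside the stimulated range. In summed reads it was at 54, 50 and 58 against 93, 77 and 69 reads, without overlap, unlike Col28a1, and the log2 fold change was -0.60 (SE 0.30, edgeR adjusted p = 0.726). A transcript of 357 bases took 77.0 and 50.7% of the TPM in sham 1 and sham 2 from 3.99 and 1.00 reads, and none in the other libraries.

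Fold changes from the gene table and from summed reads differed by over 0.5 on the log2 scale in 7 of 44 collagen genes (15.9%), against 4.29% of 26276 genes. The 7 were Col28a1, Col20a1, Col17a1, Col9a1, Col2a1, Col11a1 and Col11a2. The signs differed for Col2a1, Col11a1 and Col11a2. Col9a1, a FACIT chain of cartilage with 3 to 24 reads per library, had -1.47 (SE 0.95) in the gene table and -0.55 (SE 0.80) in summed reads. For 4 of the 5 most abundant chains by CPM both quantities gave close values, -0.71 and -0.75 for Col4a1, -0.84 and -0.85 for Col4a2, -0.82 and -0.79 for Col3a1, and -0.66 and -0.73 for Col1a1. For Col1a2, the other of the 5, they were -0.91 and -0.59.

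The remaining transmembrane and anchoring chains were low. Col7a1, the anchoring fibril chain, was at 0.63, 1.13 and 11.5 CPM in stimulated and 2.89, 5.69 and 14.5 CPM in sham libraries in the gene table. In summed reads it was at 22, 43 and 51 against 75, 69 and 55 reads, with no overlap by CPM (log2 fold change -0.84, SE 0.37, unadjusted p = 0.05, edgeR adjusted p = 0.669). Col13a1, which acts at the neuromuscular junction, was at 1.74, 1.72 and 2.25 CPM in stimulated and 1.47, 4.93 and 2.78 CPM in sham libraries. Col23a1 was at 5.79, 12.6 and 10.3 CPM in stimulated and 8.31, 6.72 and 19.9 CPM in sham libraries. Its summed reads, 110, 176 and 189 against 234, 208 and 186, separated by CPM with a log2 fold change of -0.46 (SE 0.26, edgeR adjusted p = 0.798). Col25a1 was at 5.16, 4.83 and 3.62 CPM against 6.98, 4.06 and 2.21 CPM. Col26a1 was at 4.79, 4.98 and 5.26 CPM against 4.13, 5.20 and 4.15 CPM in the gene table, and at 2.80 to 5.52 CPM in summed reads. Their log2 fold changes in the gene table were 0.04 (SE 0.43) and 0.16 (SE 0.29). Transcripts not annotated as protein coding held 72.1 to 94.5% of the Col25a1 reads and 92.6 to 100% of the Col26a1 reads, so these are not levels of coding RNA alone. The same limit holds for Col2a1, Col16a1, Col27a1, Col4a6 and Col9a3, where the median share over libraries was 50.4 to 83.6%.

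Levels were compared between genes per length and within a library, as a share of the family's sum, because TPM is relative to each library's own total. In TPM, Col4a1 made up 24.9 ± 3.46% (SD, n = 6) of the family, Col3a1 20.6 ± 1.17%, Col1a1 16.1 ± 2.81% and Col4a2 11.4 ± 1.5%, in that order. In reads per kilobase of the longest coding transcript, a scale added after the data were seen, the order was Col4a1 with 28.2 ± 2.6% (SD, n = 6), Col4a2 with 20.1 ± 2.49%, Col3a1 with 13.3 ± 1.14%, Col1a1 with 8.92 ± 1.48% and Col1a2 with 8.23 ± 1.41%. Col1a1 and Col1a2 did not differ beyond their spread on this scale. Col4a1 and Col4a2 together made up 36.3% of the family in TPM and 48.3% in reads per kilobase, the range over libraries being 29.8 to 42.8% and 41.4 to 53.6%.

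The scale also set the ratio between the chains of type I collagen, which assemble as a pair of alpha 1 chains with a single alpha 2 chain. The ratio of Col1a1 to Col1a2 was 2.16 to 3.77 in TPM over the 6 libraries and 0.946 to 1.21 in reads per kilobase. In Col1a1, 2 short transcripts held 3.35 to 4.63% of the reads and 78.7 to 84.0% of the TPM. In Col4a1, a transcript of 6487 bases annotated for nonsense-mediated decay held 25.1 to 48.3% of the reads, and the full-length coding transcript 42.5 to 66.5%. The corresponding full-length coding share of reads was 83.7 to 85.6% in Col3a1 and 88.4 to 90.4% in Col4a2. Of the TPM, the full-length coding transcript held 20.6 to 25.2% in Col3a1, 16.0 to 28.1% in Col4a1 and 48.1 to 53.6% in Col4a2. Other transcripts thus carried much of the TPM behind the order of chains given above. TPM also uses the effective length, which for these full-length coding transcripts exceeded the annotated length. It was 11727 to 13229 against 6615 bases in Col4a1 and 12722 to 14798 against 6450 bases in Col4a2. In Col1a1 it was 11145 to 12656 against 5930 bases, and in Col3a1 8846 to 9729 against 5564 bases.

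The abundant chains went up and down together across libraries. Of the 14 collagen genes with a mean of at least 20 CPM, 10 were highest in sham 2 and 4 in stimulated 3, and 12 were lowest in stimulated 1. Summed over the family, the level was 1772, 2413 and 3784 CPM in stimulated and 2482, 6201 and 4274 CPM in sham libraries. The fibrillar chains summed to 533, 689 and 1314 CPM in stimulated and 877, 1923 and 1371 CPM in sham libraries, and the basement membrane chains to 1009, 1464 and 1901 CPM against 1203, 3690 and 2469 CPM. Stimulated 3 was the highest stimulated library in both sums, and sham 2 the highest of all. The 10 fibro-adipogenic markers, genes of the fibroblast-like progenitors of muscle, summed to 701, 816 and 1618 CPM in stimulated and 972, 2098 and 1510 CPM in sham libraries, with 7 of 10 negative. The 6 tenocyte markers summed to 29.2, 53.5 and 217 CPM against 98.8, 133 and 91.8 CPM, with stimulated 3 the highest. None of these markers was at 0 in any library. Gsn alone gave 454 of the 701 CPM of the fibro-adipogenic sum in stimulated 1 and 1576 of the 2098 CPM in sham 2. Within each group, the fibrillar, basement membrane, fibro-adipogenic, endothelial, pericyte and smooth muscle sums all had the same order of libraries, and the part of these markers in the collagen levels was not tested.

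**Figure D4:**
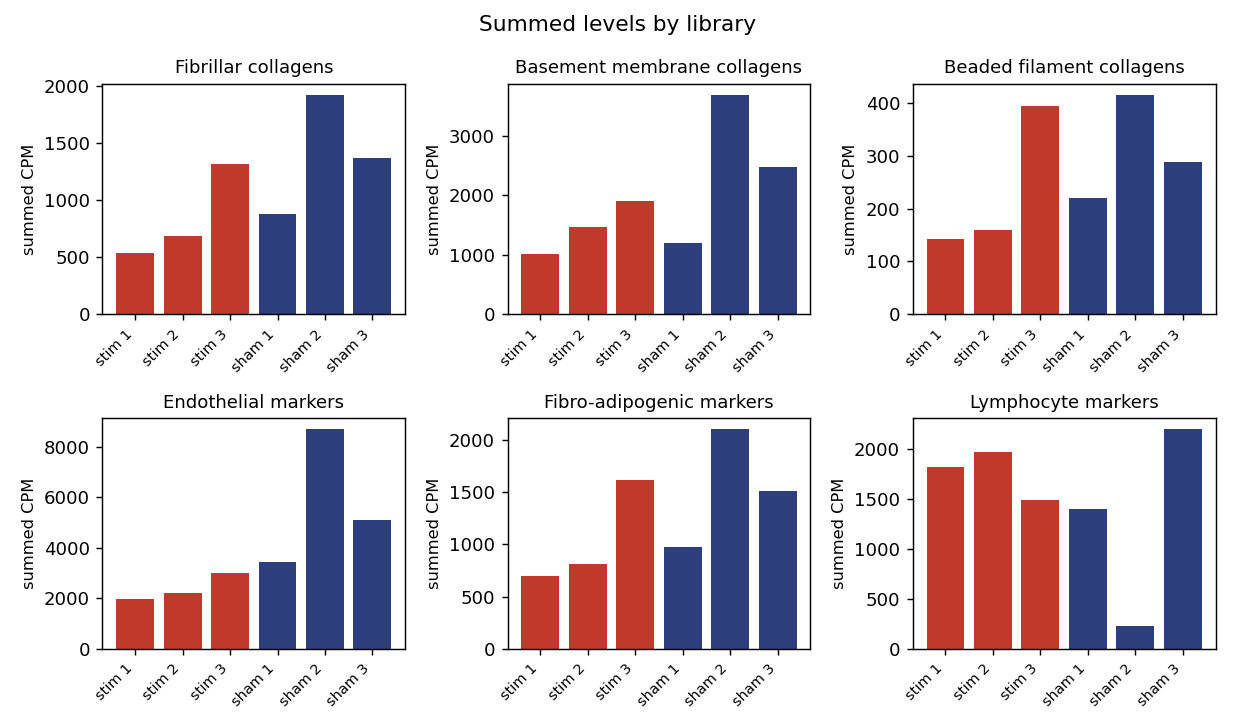
Summed CPM of 3 collagen groups (top) and of 3 marker lists (bottom) in each library, stimulated in red and sham in blue, each panel on its own axis from 0. The collagen sums of stimulated 3 lie within the sham range, and sham 2 has the highest endothelial and the lowest lymphocyte sum.

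Genes that act with collagens were taken from lists compiled for this comparison, and 0 of them had an edgeR adjusted p under 0.05. Of 32 genes for collagen folding, modification and crosslinking, 27 had a negative log2 fold change (median -0.26), and 4 were lower and 0 higher at an unadjusted p under 0.05 (4.41% and 2.64% of all genes). Without sham 2 the count was 18 of 32. Pxdn, the peroxidase that crosslinks type IV collagen, was at 54.8, 65.3 and 87.0 CPM in stimulated and 127, 300 and 173 CPM in sham libraries, with no overlap (log2 fold change -1.53, SE 0.36, adjusted p = 0.424). DESeq2 called 2 genes of this list, Pxdn and Colgalt2, among its 227 calls over 26559 genes. It also called 4 of the 10 endothelial and 2 of the 10 myeloid markers. Colgalt2, a collagen galactosyltransferase, was at 8.85, 9.56 and 12.3 CPM in stimulated and 20.0, 42.2 and 24.9 CPM in sham libraries (log2 fold change -1.5, SE 0.33). Bmp1 encodes the protease that removes the carboxyl propeptide of fibrillar procollagens, and its value was -0.91 (SE 0.30).

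Of 10 collagen receptors, 8 had a negative log2 fold change, with a median of -0.32. Without sham 2 it was 6 of 10, with a median of -0.12, and without stimulated 3 the median was -0.60. Itga1, the integrin subunit that binds type IV collagen, was at 174, 150 and 223 CPM in stimulated and 272, 595 and 321 CPM in sham libraries, also without overlap (log2 fold change -1.12, SE 0.35, edgeR adjusted p = 0.589). Of 10 basement membrane partners such as laminins and nidogens, 10 were negative, with a median of -0.99, and 6 were lower at an unadjusted p under 0.05 (52.0% and 4.41% of all genes). The estimate for Agrn, a heparan sulfate proteoglycan of the basement membrane, was -1.16 (SE 0.34), that for Lamb1, a laminin beta chain, was -1.10 (SE 0.34), and that for Lama4, the laminin alpha chain of vessels, was -1.01 (SE 0.39). The median of this list was -0.56 without sham 2 and -1.22 without stimulated 3. The fibril-associated proteoglycans were negative in 8 of 8, with a median of -0.60 and 0 at an unadjusted p under 0.05. Lum, which encodes the fibril-spacing proteoglycan lumican, was at 9.06, 6.60 and 24.3 CPM in stimulated and 19.2, 26.7 and 19.6 CPM in sham libraries. That median ranged from -0.31 without stimulated 2 to -1.58 without stimulated 3.

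Among 9 collagen-degrading proteases and their inhibitors, 6 were negative, with a median of -0.25, and 2 were higher at an unadjusted p under 0.05 (2.64% of all genes). Without sham 2 the direction turned, with 2 of 9 negative and a median of 0.04. Mmp8, the neutrophil collagenase, was at 6.85, 2.96 and 5.79 CPM in stimulated and 2.36, 1.73 and 0.26 CPM in sham libraries (log2 fold change 1.83, SE 0.66, edgeR adjusted p = 0.638). Timp1, an inhibitor of such proteases, was at 1.16, 1.58 and 2.17 CPM against 0.49, 0.87 and 0.58 CPM (log2 fold change 1.34, SE 0.50, edgeR adjusted p = 0.647). For the neutrophil genes S100a8 and S100a9 the estimates were 2.83 (SE 0.46) and 2.43 (SE 0.34), while 5 of the 10 myeloid markers they belong to were negative, with a median of -0.02. The 10 markers summed to 460 to 739 CPM in stimulated and 284 to 909 CPM in sham libraries with none at 0, and their part in the Mmp8 value was not tested. Of 15 regulators of collagen genes tested, 7 were negative, with a median of 0.05. Tgfb2, a ligand of the pathway that drives collagen transcription, was at 4.95, 7.79 and 5.08 CPM in stimulated and 13.6, 25.5 and 12.6 CPM in sham libraries (log2 fold change -1.54, SE 0.36, edgeR adjusted p = 0.424). DESeq2 called Tgfb2 as well, its 1 call in this list among 227 in all. For Tgfb1, another such ligand, the gene table gave 0.43 (SE 0.23) and summed reads -0.11.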

How the data were processed

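Total RNA was measured in 3 stimulated and 3 sham libraries made with a stranded low-input kit, according to the labels' protocols, and titles gave group and number. Tools named in the submitters' processing notes are Salmon 0.8.2, Trimmomatic 0.36, bcl2fastq 2.17.1.14, edgeR and R 3.5.1, with the build GRCm38 and no settings. Gene values are estimated counts deposited by the authors. Their transcript tables give TPM, estimated count, length and effective length, per the file headers. Among 14096 genes above 0.1 TPM in all libraries, the deposited gene value followed TPM times 1 factor per gene and 1 per library, within 1%, in 100%, so it is not a sum of reads.

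Estimated counts were rounded and filtered with edgeR's filterByExpr (minimum count 10, minimum total 15), leaving 26559 genes, scaled by TMM and tested with edgeR 4.0.16 (R 4.3.3) by its robust quasi-likelihood F test, with adjustment over all genes at 0.05. The SE was taken as the size of the log2 fold change over the root of F. CPM values are TMM-scaled, and n is 3 per group where no other n is given. The same test was run on transcript reads summed per gene. The edgeR test was also run on counts simulated from the means and spread of the gene table. No counts were simulated from the summed reads. Alternatives were DESeq2 1.42.0, limma voom (limma 3.58.1), RLE size factors, no filter, 1 CPM in 3 libraries, the replicate number as a block, mitochondrial and ribosomal RNA left out, and each library left out. Summed reads with each library left out and reads per kilobase were added after the data were seen. Replicates were not duplicates (chi-square per gene 24.1 to 111). Total counts per library were 17520338 to 23709220.

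Members and gene lists were chosen with earlier results of these data known. Every chain could be named. Per structural group, up to 4 chains with the highest mean TPM and every chain with an unadjusted p under 0.05 in either quantity were to be given by library, and up to 3 members of each other list by smallest p. Col5a1, Col5a3, Col6a5, S100a8 and S100a9, and the comparisons of chain ratios and transcripts were chosen after their values were seen. Marker lists of smooth muscle, satellite cells and myofibres were also computed: 7 of 7, 0 of 5 and 0 of 8 tested members were negative. Of the table's Itgam entries the more abundant was used, and Ccn2 is listed as Ctgf.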

Additional observations from a re-analysis of the deposited data

How the results depend on the processing

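There were 3 libraries a group, and the common biological coefficient of variation was 0.4. In the main edgeR test no chain, abundant or low, differed between the groups at an adjusted p of 0.05. Over 14 other settings, 615 fold changes of single chains were computed, of which 47 had another sign than the reported value. For 25 of 44 chains none of these changed the sign, and 23 of these 25 were negative. The count of negative collagen genes was 29 (without stimulated 1) to 38 (summed reads), 31 to 40 with summed reads and a library left out, and the median was -0.774 without stimulated 3 to -0.184 without sham 2.

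Calls over all genes numbered 227 with DESeq2, 109 without a filter, 3 with RLE size factors, 1 with summed reads and 0 to 1 when a library was left out, the 1 being without stimulated 3. Among collagens, DESeq2 and the fit without a filter each called 1, Col28a1, at -2.265 (adjusted p = 0.0001) and -2.212 (adjusted p = 0.000906), while its adjusted p was 0.24 to 1 under the other alternatives. DESeq2 gave no adjusted p for 6724 genes. Col4a1 and Col4a2 made up 51.4% of the family in CPM and 48.3% in reads per kilobase, against 36.3% in TPM.

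The sign changed in summed reads for Col11a1 (-0.0033), Col11a2 (0.142), Col24a1 (-0.045), Col25a1 (-0.074), Col26a1 (-0.25), Col2a1 (0.125), Col5a3 (-0.164) and Col6a4 (-0.093). It changed with limma voom for Col18a1 (0.024), Col24a1 (-0.231) and Col5a3 (-0.131), and with 1 CPM in 3 libraries for Col5a3 (-0.00021). Leaving out each library gave these ranges for chains whose sign changed: Col12a1 -0.358 to 0.178, Col14a1 -0.708 to 0.05, Col18a1 -0.584 to 0.485, Col19a1 -0.328 to 0.593, Col20a1 -0.733 to 1.765, Col22a1 -0.701 to 0.117, Col23a1 -0.553 to 0.367, Col24a1 -0.984 to 0.971, Col25a1 -0.272 to 0.533, Col5a2 -0.902 to 0.114, Col5a3 -0.848 to 0.514, Col6a4 -0.23 to 0.79, Col7a1 -3.114 to 0.073, Col9a2 -0.667 to 0.173, Col9a3 -0.658 to 0.025. The cause was not tested.

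Deviations from the group mean correlated at 0.32, -0.16 and 0.13 between libraries of replicate numbers 1, 2 and 3. Between libraries of unlike number the correlations were -0.33 to 0.23. The pair numbered 1 had the highest value, but the signs were mixed, so the numbers were not taken as pairs. With the replicate number as a block, 0 genes passed, the median of the collagen genes was -0.4, 35 were negative, and the sign changed for Col18a1 (0.011), Col24a1 (-0.08) and Col5a3 (-0.147).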
